A study of Mus musculus with 19 samples.

Results

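The comparison described here set the livers of control mice on a diet rich in cholesterol, fructose and fat (HF-C) against the livers of control mice on a low fat diet (LF-C). Its members are 9 of the 19 libraries of the series, chosen by their titles: 5 HF-C and 4 LF-C libraries, with all genes of their deposited count columns. Both groups were adult mice that carry the control label, meaning that the nuclear receptor PPARγ had not been knocked out in their hepatocytes. The labels give neither strain nor sex nor the exact age, and they do not say which alleles the controls carry. HF-C mice ate the HFCF diet D16010101 of Research Diets for 24 weeks and are labelled as having non-alcoholic steatohepatitis. LF-C mice ate the LFCF diet D091000304 and are labelled healthy. The series also holds KO-labelled mice on the same diets, 6 HF-KO and 4 LF-KO, which are used here only where the diet effect is set against theirs. RNA came from whole liver, so every level is an average over hepatocytes, vessel, bile duct and blood-borne cells.

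Steatohepatitis is a fatty liver disease in which stored triglyceride is joined by hepatocyte injury, inflammation and scarring. Hepatocytes, which make most plasma proteins and handle lipids, sugars, amino acids and bile acids, respond to dietary fat and cholesterol through nuclear receptors and sterol sensors. Stellate cells lay down collagen once activated, and macrophages that take up lipid and debris, often called lipid-associated macrophages, gather around fat-laden hepatocytes.

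Ddx3y, a gene of the Y chromosome, was read in all 9 libraries at 58.0 to 64.5 CPM in HF-C and 30.8 to 94.1 CPM in LF-C. Alb, which encodes albumin and defines hepatocytes, was at 26574 to 37125 CPM in HF-C and 50664 to 118060.0 CPM in LF-C, as fits liver tissue. A single library stood apart from the others. LF-C-2 had the most counted fragments (20711869, against 11437875 to 17120356 in the other 8), the largest share of counts in its 10 top genes (25.5%, against 15.0% to 18.5%) and the smallest share from mitochondrially encoded genes (1.64%, against 4.02% to 5.78%). Its counts also leaned to short transcripts beside the other LF-C libraries. Across genes, gene length was correlated with each library's deviation from the mean of the other libraries of its own group. The Spearman correlation was -0.49 in LF-C-2 and -0.21 in LF-C-1, but 0.48 for LF-C-3 and 0.46 for LF-C-4. HF-C libraries, set against each other, lay between -0.32 and 0.34. Opposite signs within a group are partly built into this measure, and HF-C and LF-C have separate baselines. Blood and smooth muscle genes were high in LF-C-2 as well. Hba-a1, a haemoglobin chain, was at 613 CPM there, against 40.8 to 64.0 CPM in HF-C and 61.5 to 81.5 CPM in the other LF-C libraries. Acta2, smooth muscle actin, was at 58.4 CPM, against 5.36 to 6.70 CPM in HF-C and 3.95 to 7.27 CPM in the other LF-C libraries. The part of these differences in the diet comparison was not tested, and values without LF-C-2 stand beside the calls that its absence changed and the list counts that it moved by over 1.5 times.

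**Figure D1:**
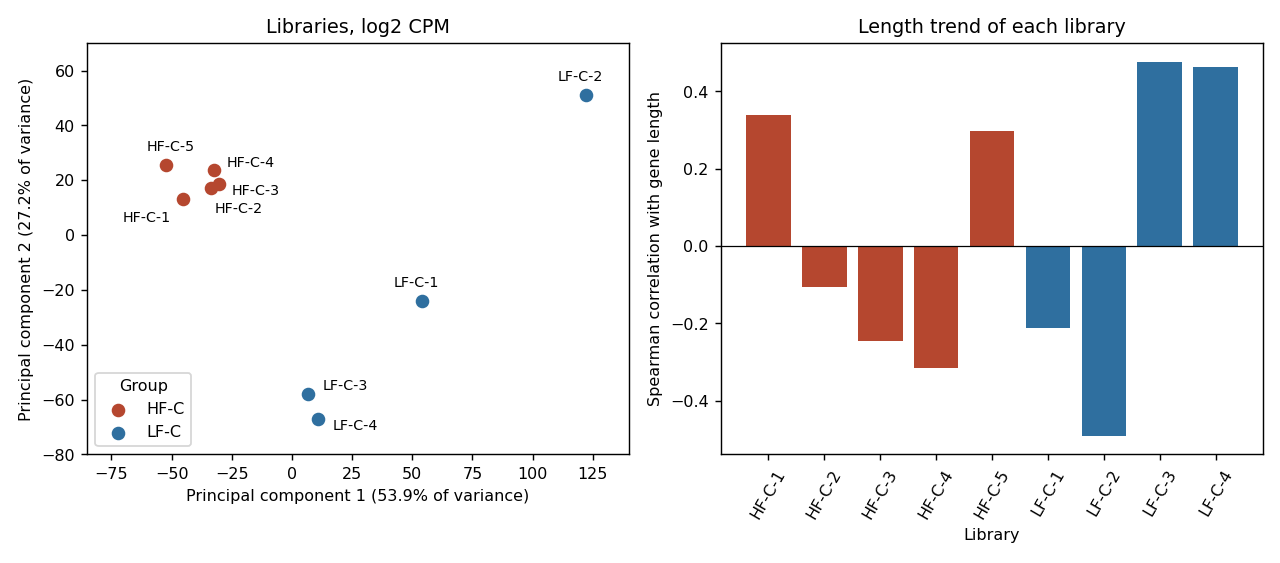
Left, the first 2 principal components of log2 CPM, 53.9% and 27.2% of the variance. Right, the Spearman correlation across genes of gene length with each library's deviation from the mean of the other libraries of its group. The 5 HF-C libraries lie together on the left of the first component, LF-C-2 lies farthest to the right, and the LF-C libraries differ in the sign of their length trend.

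The diet comparison changed 2458 of 13825 tested genes, 17.8%, at an adjusted p under 0.05 in edgeR's quasi-likelihood test. In HF-C livers 1470 genes were higher, 10.6% of those tested, and 988 were lower, 7.15%. These shares are the background for every list count below. Levels are CPM, a gene's counts scaled to the size of its library with TMM factors, and per-library values stand in the order of library number; fold changes are log2(HF-C/LF-C) ± SE with n = 5 and 4, and the median over all tested genes was 0.02. Rises outnumbered falls among strong changes, with 117 genes more than 8-fold higher and 20 more than 8-fold lower. Of all 13825 tested genes, every HF-C library lay above every LF-C library in 1792 and below in 1190. The groups did not overlap in 2205 of the 2458 called genes, so a lack of overlap is common among called genes. Direction went with abundance: in the lowest quintile of mean level 500 genes rose and 99 fell, and in the highest quintile 113 rose and 471 fell. It also went with gene length: in the shortest quintile 162 genes rose and 347 fell, and in the longest 378 rose and 62 fell. Without LF-C-2 the median log2 fold change of the shortest quintile went from -0.43 to -0.18. That of the longest went from 0.23 to 0.01. The cause of either trend was not tested. Without LF-C-2 the counts were 2051 higher and 1427 lower, and without any 1 of HF-C-1, HF-C-2, HF-C-4 and HF-C-5 the total was between 1451 and 1637. With library totals as the only scaling the counts were 2730 and 326, as the median of all genes then stood at 0.43. Where a list median printed in the text changed sign under that scaling, this is said beside it. Some medians that are not printed also went from negative to positive under it. They belong to the lists of lipolysis, triglyceride synthesis, lipogenesis and desaturation, sterol efflux, growth hormone signalling, and insulin and IGF genes. The same holds for the lists of female-biased genes, hepatocyte transcription factors, B and plasma cell genes, and iron and heme genes. Where a call was lost in a fit without 1 library, the text gives in how many of the 9 such fits, with the highest adjusted p.

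**Figure D2:**
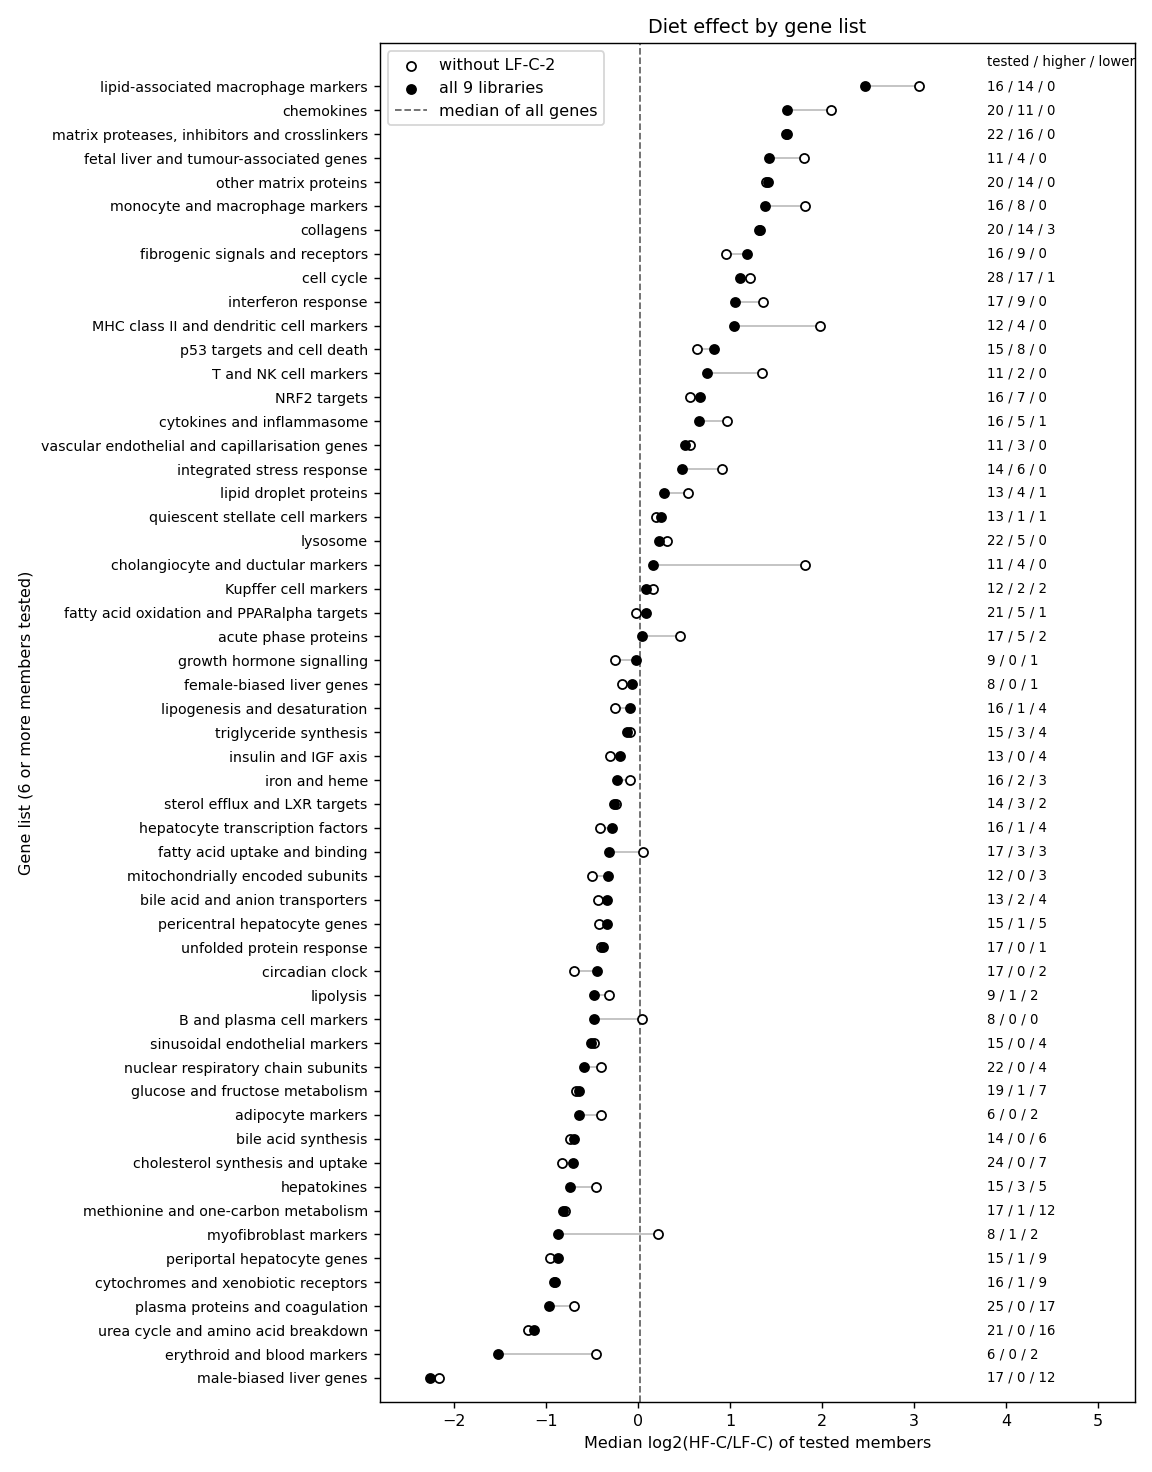
Median log2(HF-C/LF-C) of the tested members of each gene list, with all 9 libraries (filled) and without LF-C-2 (open); numbers give the members tested, higher and lower. Lists with 6 or more tested members are shown. Lipid-associated macrophage markers, at 2.47, lie farthest to the right and male-biased genes, at -2.25, farthest to the left, while the median of all genes (dashed line) was 0.02.

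The liver's own secreted products were among the transcripts that fell. Of 25 plasma protein and coagulation genes tested, 17 fell (9 with library totals as the only scaling) and 0 rose, with a median log2 fold change of -0.97. Alb itself stood at 30956, 29874, 35352, 37125 and 26574 CPM in the HF-C libraries, against 79140.0, 118060.0, 58507 and 50664 CPM in the LF-C libraries. The lowest LF-C library thus lay above the highest HF-C library (log2 -1.26 ± 0.27, adjusted p = 0.00955). Ttr, the thyroid hormone carrier transthyretin, fell with -1.58 ± 0.38 (adjusted p = 0.0166), and Ahsg, the calcium-binding glycoprotein fetuin-A, with -1.13 ± 0.29 (adjusted p = 0.0225; call lost in 5 of 9 fits, highest adjusted p = 0.0627 without HF-C-1). The apolipoproteins rested more on LF-C-2. Apoc3, an inhibitor of lipoprotein clearance, was at 1119, 1397, 1442, 1420.1 and 1101 CPM in the HF-C libraries, against 2779, 9498, 2179 and 2039.9 CPM in the LF-C libraries. LF-C-2 was the highest library by far, and without it the fold change was -0.88 (adjusted p = 0.00249) in place of -1.67 ± 0.43; the call was lost in 4 of 9 fits, highest adjusted p = 0.0659 without HF-C-5. Apoa1, the main protein of high density lipoprotein, was not called (log2 -1.55 ± 0.49, adjusted p = 0.052; log2 -0.63 without LF-C-2) but passed without LF-C-3 or without LF-C-4 (lowest adjusted p = 0.0234), and neither was Apoe at 24846 ± 2823 CPM in HF-C and 48310.0 ± 37151 CPM in LF-C. Deposited FPKM divide by gene length and library total and carry no TMM factor. Gene length cancels when 1 gene is compared between groups, so FPKM and CPM ratios differ here by the scaling. Alb averaged 17875 FPKM in HF-C and 30264 FPKM in LF-C, and Apoe 20480.0 FPKM in HF-C and 26465 FPKM in LF-C. Scd1, the desaturase that makes oleate, averaged 7048 FPKM in HF-C and 2843 FPKM in LF-C. Scd1 ranged over 18591 to 39764 CPM in HF-C and 7626 to 28575 CPM in LF-C; the groups overlapped and the gene was not called (log2 0.97 ± 0.39, adjusted p = 0.106), though it passed without LF-C-3 (log2 1.48, adjusted p = 0.0135).

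Acute phase proteins, which hepatocytes secrete in inflammation, did not follow the other plasma proteins: 5 of 17 rose and 2 fell, with a median of 0.05. Lcn2, the iron-siderophore binder lipocalin 2, was at 139.6, 117, 107, 166 and 160.3 CPM in the HF-C libraries, against 13.7, 21.5, 7.37 and 6.61 CPM in the LF-C libraries. The lowest HF-C library was 4.97-fold above the highest LF-C library (log2 3.49 ± 0.37, adjusted p = 0.000322). Il1rn, the interleukin 1 receptor antagonist, rose by 2.33 ± 0.22 on the log2 scale. Saa2 and Orm2, both from families whose near-identical copies share reads, rose by 2.01 ± 0.41 and 2.04 ± 0.43. Hp, haptoglobin, averaged 4173 ± 465 CPM in HF-C and 4128 ± 2889.7 CPM in LF-C and was not called (adjusted p = 0.983). Hepcidin, the hormone that closes the iron exporter ferroportin, went the other way. Hamp was at 205, 315, 543, 236 and 283 CPM in the HF-C libraries, against 1082, 1566, 634 and 847 CPM in the LF-C libraries, with no overlap between groups (log2 -1.71 ± 0.33, adjusted p = 0.00607), and its copy Hamp2 had -3.50 ± 0.61, which shrank to -2.42 without LF-C-2.

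The male-biased liver genes, which in mice depend on the pulsed growth hormone of males, had the lowest median of the 57 lists. Of 17 tested, 12 fell and 0 rose, and the median was -2.25 (-2.16 without LF-C-2). Hsd3b5, a steroid-converting enzyme (ENSMUSG00000038092, chromosome 3, 98618636 to 98630309; gene positions are those of the deposited table, whose genome build is not given in the sources used here), was at 0.112, 0.173, 0.567, 0.217 and 0.146 CPM in the HF-C libraries, against 72.0, 236, 114 and 149.9 CPM in the LF-C libraries. Every HF-C library was under 1 CPM, where 3 counts correspond to 0.145 to 0.173 CPM, and the lowest LF-C library was at 72.0 CPM (log2 -9.14 ± 0.51, adjusted p = 3.68e-05). Slco1a1, a sodium-independent importer of organic anions and steroid conjugates (ENSMUSG00000041698, chromosome 6, 141907282 to 141946962), was at 19.2, 29.3, 25.2, 11.3 and 13.0 CPM in the HF-C libraries, against 303, 353, 394 and 536 CPM in the LF-C libraries. The groups were 10.4-fold apart at their nearest libraries (log2 -4.34 ± 0.32, adjusted p = 6.98e-05). Susd4, a complement regulator with sushi domains, was at 4.93, 4.96, 3.92, 5.92 and 3.11 CPM in the HF-C libraries, against 31.4, 31.6, 27.5 and 35.1 CPM in the LF-C libraries. Its spread within either group was small beside the fall (log2 -2.78 ± 0.20, adjusted p = 6.98e-05).

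Other members fell with them. Cyp2d9, a male-specific steroid hydroxylase, averaged 465 ± 63.5 CPM in HF-C and 1619.9 ± 346 CPM in LF-C (log2 -1.80 ± 0.19, adjusted p = 0.000322). Cyp7b1, which hydroxylates oxysterols, averaged 34.6 ± 6.14 CPM in HF-C and 165 ± 49.0 CPM in LF-C (log2 -2.25 ± 0.23, adjusted p = 0.000283), and Elovl3, an elongase of long fatty acids, 44.6 ± 17.5 CPM in HF-C and 227 ± 169.7 CPM in LF-C (log2 -2.35 ± 0.46, adjusted p = 0.00658; log2 -1.71 without LF-C-3). Mup7 and Mup1, major urinary proteins that carry pheromones, had -7.33 ± 0.58 and -4.78 ± 0.50, and Serpina1e, an α1-antitrypsin copy, -4.28 ± 0.30. Both families are made of near-identical genes whose reads can be split between copies, so single copies are uncertain. Not every male-biased gene passed. Cyp4a12a, an arachidonic acid hydroxylase, stood at 116, 88.0, 112, 123 and 97.9 CPM in the HF-C libraries, against 83.4, 79.3, 99.2 and 81.1 CPM in the LF-C libraries, and it was not called (log2 0.33 ± 0.15, adjusted p = 0.162). Neither were Cyp4a12b, Mup20, Ugt2b1 or the complement gene C6, of which Ugt2b1 passed without LF-C-2 (adjusted p = 0.0507 with it, 0.0017 without it). Among 8 female-biased genes tested 0 rose, or 1 without LF-C-2, and 1 fell, Acot3 (log2 -1.36 ± 0.34, adjusted p = 0.0207; call lost in 5 of 9 fits, highest adjusted p = 0.0625 without HF-C-5).

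Of the growth hormone pathway itself, 1 of 9 genes changed, beside 17.8% of all genes, and 2 changed without LF-C-2. Ghr, the receptor, was at 390.4, 409, 387, 390.4 and 364 CPM in the HF-C libraries, against 551, 434, 643 and 812 CPM in the LF-C libraries; the groups did not overlap (log2 -0.65 ± 0.18, adjusted p = 0.0341), but the call was lost in 8 of 9 fits, highest adjusted p = 0.0902 without HF-C-1. Stat5b, the transcription factor that carries the male signal, averaged 70.1 ± 5.90 CPM in HF-C and 71.2 ± 33.0 CPM in LF-C, and Socs2, one of its feedback targets, 23.8 ± 11.7 CPM in HF-C and 19.8 ± 10.2 CPM in LF-C; neither was called. Of 13 insulin and IGF genes 4 fell and 0 rose. Igfals, the acid-labile subunit that holds IGF1 in plasma, averaged 49.4 ± 6.81 CPM in HF-C and 165 ± 90.5 CPM in LF-C (log2 -1.74 ± 0.30, adjusted p = 0.00321). Igf1 itself fell by less (log2 -0.73 ± 0.22, adjusted p = 0.0443), and its call was lost in 6 of 9 fits, highest adjusted p = 0.12 without HF-C-1.

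Most genes of amino acid metabolism fell: 16 of 21 urea cycle and amino acid breakdown genes were lower (11 with library totals as the only scaling), 0 were higher, and the median was -1.13, against 0.02 over all genes. Asl, the argininosuccinate lyase of the urea cycle (ENSMUSG00000025533, chromosome 5, 130011258 to 130025132), was at 196, 237, 295, 215 and 181 CPM in the HF-C libraries, against 797, 1637, 486 and 696 CPM in the LF-C libraries. All LF-C libraries were above all HF-C libraries (log2 -2.01 ± 0.32, adjusted p = 0.00235). Hpd, which degrades tyrosine, averaged 984 ± 183 CPM in HF-C and 3838 ± 2399 CPM in LF-C (log2 -1.96 ± 0.35, adjusted p = 0.00381), Hal, which deaminates histidine, 141 ± 57.2 CPM in HF-C and 460.0 ± 108 CPM in LF-C (log2 -1.71 ± 0.29, adjusted p = 0.00293), and Agxt, which detoxifies glyoxylate, 107 ± 33.8 CPM in HF-C and 448 ± 337 CPM in LF-C (log2 -2.06 ± 0.42, adjusted p = 0.00756; log2 -1.43 without LF-C-2). Cps1, the entry step of the urea cycle, missed the threshold (log2 -0.99 ± 0.32, adjusted p = 0.0535), where LF-C-2 was the lowest library of its group and within the HF-C range; without it Cps1 passed (log2 -1.26, adjusted p = 0.00111).

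Methionine and one-carbon metabolism moved with them: 12 of 17 genes fell and 1 rose, with a median of -0.81. With library totals as the only scaling 5 fell and 2 rose. Gnmt, which uses up S-adenosylmethionine and is among the most abundant methyltransferases of liver (ENSMUSG00000002769, chromosome 17, 46725664 to 46729168), was at 616, 627, 727, 546 and 575 CPM in the HF-C libraries, against 2712, 7382, 2076 and 2228 CPM in the LF-C libraries. The fall was -2.54 ± 0.36 on the log2 scale (adjusted p = 0.00144) and -1.95 without LF-C-2, the highest library. Ahcy, which hydrolyses S-adenosylhomocysteine, averaged 805 ± 95.6 CPM in HF-C and 2062 ± 327 CPM in LF-C (log2 -1.36 ± 0.17, adjusted p = 0.00068), and Cbs, which passes homocysteine on to cysteine, 292 ± 56.1 CPM in HF-C and 781 ± 447 CPM in LF-C (log2 -1.42 ± 0.33, adjusted p = 0.0143). Mthfd2, a mitochondrial folate enzyme that adult tissue carries at low level, was the 1 that rose, at 2.54 to 4.71 CPM in HF-C and 0.609 to 1.33 CPM in LF-C (log2 1.98 ± 0.34, adjusted p = 0.00319). Bhmt, the betaine-dependent methyltransferase, averaged 1453 ± 159 CPM in HF-C and 1811 ± 870.2 CPM in LF-C and was not called (adjusted p = 0.523).

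Hepatocytes differ along the path of blood through the lobule, from the portal to the central vein. Of 15 periportal genes 9 fell and 1 rose (median -0.87), and of 15 pericentral genes 5 fell and 1 rose (median -0.34, which becomes 0.01 with library totals as the only scaling). The difference between the lists was not tested. Etnppl, a periportal phospholyase, averaged 24.5 ± 8.33 CPM in HF-C and 96.7 ± 14.3 CPM in LF-C (log2 -1.98 ± 0.24, adjusted p = 0.000584), Gls2, the liver glutaminase, 176 ± 45.8 CPM in HF-C and 493 ± 66.8 CPM in LF-C (log2 -1.49 ± 0.21, adjusted p = 0.00131), and Ass1, which precedes Asl in the urea cycle, 1795 ± 348 CPM in HF-C and 4676 ± 1167 CPM in LF-C (log2 -1.38 ± 0.21, adjusted p = 0.00201). Of the pericentral genes, Cyp1a2, which oxidises caffeine and aromatic amines, was at 97.1, 87.2, 126, 119 and 68.6 CPM in the HF-C libraries, against 403, 381, 280.0 and 319 CPM in the LF-C libraries. It fell to under 130 CPM in each HF-C library and was above 275 CPM in each LF-C library (log2 -1.80 ± 0.21, adjusted p = 0.000506). Glul, the glutamine synthetase of the last hepatocytes around the central vein, overlapped between groups at 1249.8 to 1884 CPM in HF-C and 932 to 1500.0 CPM in LF-C and was not called (adjusted p = 0.276).

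Cytochromes of drug metabolism moved in both directions, with 9 of 16 lower and 1 higher. Cyp2c37 and Cyp2c54, which oxidise fatty acids, fell, with log2 fold changes of -2.28 ± 0.27 and -2.88 ± 0.36; they belong to a cluster of close copies, so their split is uncertain. Cyp3a11, the main mouse target of the xenobiotic receptor PXR and itself one of several similar genes, was the 1 that rose. It was at 1935, 1805, 3158, 2316 and 1901 CPM in the HF-C libraries, against 508, 376, 768 and 335 CPM in the LF-C libraries. The lowest HF-C library was 2.35-fold above the highest LF-C library (log2 2.16 ± 0.29, adjusted p = 0.000986). Of 13 bile acid and anion transporters 4 fell and 2 rose. Slc10a1, the sodium-dependent bile acid importer, was at 185, 248, 226, 228 and 179 CPM in the HF-C libraries, against 823, 831, 685 and 898 CPM in the LF-C libraries. The HF-C libraries were all under 250 CPM (log2 -1.93 ± 0.16, adjusted p = 0.000154). Abcb11, the export pump of the bile canaliculus, overlapped between groups at 363 to 587 CPM in HF-C and 472 to 846 CPM in LF-C and was not called (adjusted p = 0.166). Of 14 bile acid synthesis genes 6 fell (2 with library totals as the only scaling) and 0 rose. Slc27a5, which joins bile acids to coenzyme A, averaged 479 ± 59.3 CPM in HF-C and 989 ± 149 CPM in LF-C (log2 -1.05 ± 0.17, adjusted p = 0.00222). Cyp7a1, the rate-limiting enzyme of the classical route, spread over 14.8 to 316 CPM within LF-C alone, and was not called (adjusted p = 0.631) but passed without LF-C-4 (adjusted p = 0.0238).

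Of 19 genes of sugar handling 7 fell, or 12 without LF-C-2, and 1 rose. With library totals as the only scaling 2 fell and 3 rose. Khk, the fructokinase that commits dietary fructose, was at 386, 397, 401, 412 and 352 CPM in the HF-C libraries, against 1064, 2389, 805 and 588 CPM in the LF-C libraries. LF-C-2 was again highest, and the fold change was -1.64 ± 0.35 with it and -1.11 without it (adjusted p = 0.00947 and 0.0009). Slc2a5, a fructose transporter, averaged 6.29 ± 2.19 CPM in HF-C and 20.1 ± 3.77 CPM in LF-C (log2 -1.68 ± 0.27, adjusted p = 0.00253), and Gys2, the liver glycogen synthase, 127 ± 21.1 CPM in HF-C and 251 ± 73.5 CPM in LF-C (log2 -0.99 ± 0.23, adjusted p = 0.0142). Pck1, the gluconeogenic enzyme, was at 498 CPM in LF-C-2 and at 1940.3 to 2738 CPM in the other LF-C libraries; it was not called with LF-C-2 (log2 -0.86 ± 0.41, adjusted p = 0.164) and passed without it (log2 -1.20, adjusted p = 0.00194).

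**Figure D3:**
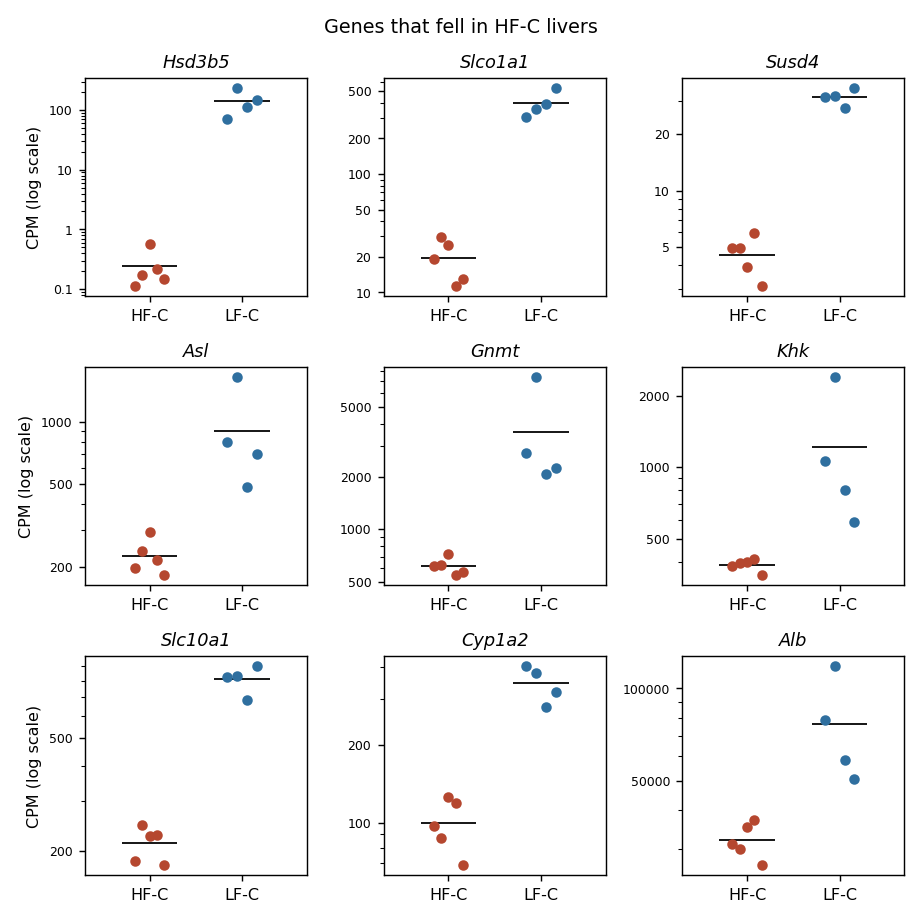
Level in CPM (log scale) of 9 genes that fell, per library, HF-C left and LF-C right in each panel; bars mark group means. Hsd3b5 lies under 1 CPM in all 5 HF-C libraries, and in Gnmt and Khk the highest LF-C point is LF-C-2.

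Some genes of lipid storage rose. Of 13 lipid droplet genes 4 rose and 1 fell. Cidea and Cidec belong to a family that joins droplets and lets them grow, and Cidea is a mark of brown fat that resting liver lacks. Cidea was at 39.7, 41.2, 14.5, 44.2 and 30.8 CPM in the HF-C libraries, against 0.202, 1.57, 0.0676 and 0 CPM in the LF-C libraries. LF-C-1, LF-C-3 and LF-C-4 were at or under 3 counts, and LF-C-2 was the highest LF-C library (log2 6.23 ± 0.81, adjusted p = 0.000823; log2 8.65 without LF-C-2). Plin4, a droplet coat protein, averaged 117 ± 17.7 CPM in HF-C and 25.0 ± 7.96 CPM in LF-C (log2 2.23 ± 0.24, adjusted p = 0.000339), and Plin2, the coat protein of every fat-laden hepatocyte, 979 ± 199 CPM in HF-C and 592 ± 73.1 CPM in LF-C (log2 0.73 ± 0.19, adjusted p = 0.0226; call lost in 2 of 9 fits, highest adjusted p = 0.0568 without LF-C-1). G0s2, which inhibits the lipase ATGL, fell instead. It was at 102, 97.8, 106, 105 and 120.1 CPM in the HF-C libraries, against 253, 249.6, 129.7 and 263 CPM in the LF-C libraries; the highest HF-C library lay under the lowest LF-C library (log2 -1.07 ± 0.21, adjusted p = 0.00608).

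Fatty acid entry moved in both directions. Of 17 uptake and binding genes 3 rose and 3 fell (4 and 6 without LF-C-2), with a median of -0.31. This median became 0.27 with library totals as the only scaling and 0.06 without LF-C-2. Their summed level was 5537 to 7149 CPM in HF-C and 7837 to 18696 CPM in LF-C. Lpl, the lipase that frees fatty acids from lipoproteins and that adult hepatocytes keep low, was at 203, 212, 321, 189.8 and 209 CPM in the HF-C libraries, against 15.3, 65.5, 22.0 and 11.4 CPM in the LF-C libraries. All HF-C libraries were above 180 CPM (log2 2.99 ± 0.49, adjusted p = 0.00276); Lpl is also a gene of lipid-laden macrophages, and a whole-liver count does not say which cells held it. Cd36, a fatty acid importer, was at 346, 289, 256, 304 and 259 CPM in the HF-C libraries, against 102, 57.5, 95.4 and 111 CPM in the LF-C libraries, and the groups were 2.31-fold apart at their nearest libraries (log2 1.67 ± 0.21, adjusted p = 0.00077). Fabp1, the main fatty acid carrier of hepatocytes, had -1.26 ± 0.38, which was -0.67 without LF-C-2, with its call lost in 6 of 9 fits, highest adjusted p = 0.113 without HF-C-5. In triglyceride synthesis 3 of 15 genes rose and 4 fell. With library totals as the only scaling 4 rose and 0 fell. Aqp7, a glycerol channel of fat cells, was at 4.76, 5.95, 4.28, 7.77 and 5.53 CPM in the HF-C libraries, against 0.101, 0, 0.135 and 0.0661 CPM in the LF-C libraries. It was at or under 3 counts in every LF-C library, so its fold change rests on very few LF-C counts (log2 6.08 ± 0.46, adjusted p = 6.98e-05). Aqp7 passed the expression filter only through its HF-C counts. Mogat1, which acylates monoglyceride, averaged 6.25 ± 2.34 CPM in HF-C and 1.71 ± 0.871 CPM in LF-C (log2 1.89 ± 0.41, adjusted p = 0.0105), and Gpat3, a glycerophosphate acyltransferase listed as Agpat9, 21.8 ± 1.73 CPM in HF-C and 9.56 ± 0.990 CPM in LF-C (log2 1.19 ± 0.15, adjusted p = 0.000795). Lpin1, a phosphatidate phosphatase, was at 502 CPM in LF-C-4 and at 47.8 to 126 CPM in the other LF-C libraries (log2 -2.24 ± 0.60, adjusted p = 0.0273; log2 -1.02 without LF-C-4; call lost in 5 of 9 fits, highest adjusted p = 0.0757 without HF-C-5).

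New fatty acid synthesis was mixed. Of 16 lipogenesis and desaturation genes 1 rose and 4 fell. Scd2, the desaturase of brain and of early liver, was the 1 that rose. It was at 50.3, 41.5, 33.2, 41.4 and 50.3 CPM in the HF-C libraries, against 5.57, 5.72, 7.78 and 7.99 CPM in the LF-C libraries, with 2.67 ± 0.21 on the log2 scale (adjusted p = 8.15e-05). Fasn, the fatty acid synthase, averaged 496 ± 137 CPM in HF-C and 496 ± 157 CPM in LF-C and was not called (adjusted p = 0.999). Srebf1, which drives it, averaged 349 ± 46.9 CPM in HF-C and 322 ± 149.7 CPM in LF-C and was not called either (adjusted p = 0.789). Thrsp, a lipogenic cofactor, averaged 120.1 ± 41.9 CPM in HF-C and 362 ± 115 CPM in LF-C (log2 -1.59 ± 0.29, adjusted p = 0.00484), and Acss2, which activates acetate, 65.2 ± 7.73 CPM in HF-C and 159 ± 40.7 CPM in LF-C (log2 -1.28 ± 0.19, adjusted p = 0.00171). Cholesterol synthesis, which cells switch off through SREBP2 when sterol is plentiful, fell in 7 of 24 genes and rose in 0. The median was -0.70, and 14 genes fell without LF-C-2 and 3 with library totals as the only scaling. Tm7sf2, a sterol reductase, averaged 41.5 ± 4.55 CPM in HF-C and 130.0 ± 67.0 CPM in LF-C (log2 -1.65 ± 0.29, adjusted p = 0.00381), and Pmvk, the phosphomevalonate kinase, 17.0 ± 4.57 CPM in HF-C and 48.2 ± 21.6 CPM in LF-C (log2 -1.503 ± 0.32, adjusted p = 0.00917). Of 14 sterol efflux genes 3 rose and 2 fell. Among the rises Abcg1, a cholesterol exporter, averaged 28.2 ± 5.53 CPM in HF-C and 8.88 ± 1.33 CPM in LF-C (log2 1.66 ± 0.20, adjusted p = 0.000588), and Soat1, which esterifies cholesterol in macrophages, 18.3 ± 2.29 CPM in HF-C and 6.32 ± 2.12 CPM in LF-C (log2 1.52 ± 0.24, adjusted p = 0.00202).

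Fatty acid oxidation and PPARα targets stood near the median of all genes: 5 of 21 rose, 1 fell (2 without LF-C-2) and the median was 0.09. Of all genes 10.6% rose and 7.15% fell. Pdk4, which holds back pyruvate oxidation, averaged 24.3 ± 6.11 CPM in HF-C and 4.60 ± 3.63 CPM in LF-C (log2 2.39 ± 0.47, adjusted p = 0.00628), and Acot2, a mitochondrial thioesterase, 29.0 ± 5.25 CPM in HF-C and 10.2 ± 2.72 CPM in LF-C (adjusted p = 0.00161).

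Pparg, the gene that the series targets, codes for the receptor that drives fat storage and is scarce in lean liver (ENSMUSG00000000440, chromosome 6, 115361221 to 115490401). It was at 27.3, 25.4, 20.5, 31.2 and 21.5 CPM in the HF-C libraries, against 18.8, 7.99, 5.88 and 12.5 CPM in the LF-C libraries. The lowest HF-C library was above the highest LF-C library, and the means of log2(CPM + 1) differed by 1.19 (two-sided exact permutation test, p = 0.00794, which is the lowest value possible with groups of 5 and 4). The edgeR fit gave log2 1.16 ± 0.31, adjusted p = 0.0277, and the call was lost in 4 of 9 fits, highest adjusted p = 0.0653 without HF-C-4. Pparg also rose in KO-labelled livers. In 1 edgeR fit of all 19 libraries its log2 diet effect was 1.16 in control and 1.44 in KO-labelled livers. The difference of -0.28 ± 0.52 did not pass (adjusted p = 0.856).

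The stress programmes were tested as separate lists. The integrated stress response, in which ATF4 and its partners bind a composite C/EBP-ATF element, had 6 of 14 genes higher and 0 lower. Atf3, a stress-induced transcription factor (ENSMUSG00000026628, chromosome 1, 191170296 to 191183340), was at 12.4, 12.6, 14.3, 18.03 and 16.0 CPM in the HF-C libraries, against 1.62, 2.11, 1.35 and 1.59 CPM in the LF-C libraries. The groups were 5.85-fold apart at their nearest libraries (log2 3.13 ± 0.22, adjusted p = 6.98e-05). Gdf15, a hormone that restrains appetite, averaged 28.4 ± 6.37 CPM in HF-C and 7.05 ± 6.14 CPM in LF-C (log2 2.03 ± 0.46, adjusted p = 0.0128), and Fgf21, a hormone of the starved and stressed liver, 17.1 ± 6.34 CPM in HF-C and 5.05 ± 3.92 CPM in LF-C (log2 1.77 ± 0.53, adjusted p = 0.0408; call lost in 6 of 9 fits, highest adjusted p = 0.104 without HF-C-5). Slc7a11, the cystine importer, was at 0.435 to 1.505 CPM in HF-C and at 1 count or fewer in each LF-C library, too few for a fold change. It is 1 of the 6 counted as higher (adjusted p = 0.00395), but it passed the expression filter only through its HF-C counts. No fit that left out an HF-C library gave it a value, so its call is no separate support. Atf4 itself averaged 70.5 ± 7.22 CPM in HF-C and 68.3 ± 11.8 CPM in LF-C and was not called, and neither were Ddit3, Asns or Trib3, which are commonly read as its targets.

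The element TGATGCAA was searched on both strands of the RefSeq promoter windows of GRCm38.p6, 250 bases before to 50 after a gene's start. It was found in 5 of 15 list members, 33.3%, and in 0.929% of all 27025 genes with a window. Of the 6 genes that rose, 3 held it. Their windows are printed because these genes rose, 5′ to 3′ on the gene's strand, with the element in capitals (TTGCATCA where it lies on the other strand). They lie at chr1:191183284-191183583 for Atf3, chr7:45615441-45615740 for Fgf21 and chr3:50443564-50443863 for Slc7a11, all on the minus strand.
Atf3: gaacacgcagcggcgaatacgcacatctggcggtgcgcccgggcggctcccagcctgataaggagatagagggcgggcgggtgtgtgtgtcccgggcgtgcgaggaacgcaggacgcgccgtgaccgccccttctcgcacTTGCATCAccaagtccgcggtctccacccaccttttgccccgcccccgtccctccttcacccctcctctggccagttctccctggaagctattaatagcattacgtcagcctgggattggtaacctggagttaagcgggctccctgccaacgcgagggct
Fgf21: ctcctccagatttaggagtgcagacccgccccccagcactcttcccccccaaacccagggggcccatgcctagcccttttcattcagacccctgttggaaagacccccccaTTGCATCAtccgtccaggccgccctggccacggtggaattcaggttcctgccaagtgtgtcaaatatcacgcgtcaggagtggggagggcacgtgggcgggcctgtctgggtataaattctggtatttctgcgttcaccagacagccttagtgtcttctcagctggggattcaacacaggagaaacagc
Slc7a11: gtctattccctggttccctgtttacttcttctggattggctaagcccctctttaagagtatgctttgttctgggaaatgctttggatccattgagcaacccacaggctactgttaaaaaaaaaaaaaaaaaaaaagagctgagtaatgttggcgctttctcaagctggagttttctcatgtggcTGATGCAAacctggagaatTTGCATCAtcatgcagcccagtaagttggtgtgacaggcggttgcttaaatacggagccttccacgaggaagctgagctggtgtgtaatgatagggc
Slc7a11 held 2 matches in opposite orientation, and Atf3 and Fgf21 held 1 each. A match is a string of letters and no measure of binding.

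Genes of the p53 response rose in 8 of 15 cases and fell in 0 (median 0.82), or in 1 without LF-C-2. Cdkn1a, the cell cycle inhibitor p21, was at 42.3, 31.1, 38.4, 31.7 and 34.7 CPM in the HF-C libraries, against 4.35, 6.11, 13.4 and 2.84 CPM in the LF-C libraries. The lowest HF-C library was 2.32-fold above the highest LF-C library (log2 2.41 ± 0.39, adjusted p = 0.00256). Eda2r, a death receptor of the TNF family, averaged 4.50 ± 1.78 CPM in HF-C and 0.626 ± 0.447 CPM in LF-C (log2 2.79 ± 0.46, adjusted p = 0.00276), and Tnfrsf10b, the TRAIL receptor, 2.20 ± 0.448 CPM in HF-C and 0.440 ± 0.237 CPM in LF-C (log2 2.27 ± 0.38, adjusted p = 0.00302). Bax, which opens mitochondria in apoptosis, averaged 35.9 ± 4.98 CPM in HF-C and 34.9 ± 24.5 CPM in LF-C and was not called (adjusted p = 0.951). Of 16 targets of the oxidant sensor NRF2, 7 rose and 0 fell. Srxn1, which restores peroxiredoxins, averaged 111 ± 20.5 CPM in HF-C and 48.2 ± 7.56 CPM in LF-C (log2 1.20 ± 0.18, adjusted p = 0.00185), and Hmox1, which breaks down heme, 42.4 ± 3.75 CPM in HF-C and 20 ± 5.41 CPM in LF-C (log2 1.09 ± 0.20, adjusted p = 0.00499). Gstm3, a glutathione transferase with close copies, had 2.60 ± 0.31. In the unfolded protein response 1 of 17 genes was lower, Herpud1 (log2 -0.63 ± 0.18, adjusted p = 0.0358; call lost in 7 of 9 fits, highest adjusted p = 0.0957 without HF-C-5), 2 were lower without LF-C-2, and the median of -0.38 became 0.01 with library totals as the only scaling. Hspa5, the chaperone BiP, averaged 404 ± 65.8 CPM in HF-C and 488 ± 222 CPM in LF-C (adjusted p = 0.525).

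Many genes of the scar matrix rose. Of 20 collagen genes 14 rose and 3 fell, with a median of 1.32. Col1a1, a chain of fibrillar collagen I (ENSMUSG00000001506, chromosome 11, 94936224 to 94953042), was at 172, 114, 108, 118 and 184 CPM in the HF-C libraries, against 18.9, 21.3, 8.86 and 15.8 CPM in the LF-C libraries. The lowest HF-C library was 5.05-fold above the highest LF-C library (log2 3.10 ± 0.30, adjusted p = 0.000225). Col4a1, of the basement membrane, averaged 123 ± 37.0 CPM in HF-C and 34.3 ± 7.67 CPM in LF-C (log2 1.85 ± 0.25, adjusted p = 0.00107), and Col6a3, a beaded filament chain, 53.3 ± 17.1 CPM in HF-C and 11.2 ± 3.22 CPM in LF-C (log2 2.25 ± 0.29, adjusted p = 0.000799). The 3 collagens that fell were Col18a1 (log2 -0.71 ± 0.15, adjusted p = 0.01), which hepatocytes make, Col27a1 (log2 -0.84 ± 0.23, adjusted p = 0.0326; call lost in 5 of 9 fits, highest adjusted p = 0.093 without HF-C-1) and Col13a1 (log2 -1.31 ± 0.22, adjusted p = 0.00308). Of 20 other matrix genes 14 rose and 0 fell (17 and 2 without LF-C-2). Tnc, tenascin C of healing tissue, averaged 8.23 ± 2.33 CPM in HF-C and 0.888 ± 0.195 CPM in LF-C (log2 3.18 ± 0.30, adjusted p = 0.000225), and Thbs1, thrombospondin 1, which can activate latent TGFβ, 9.78 ± 3.74 CPM in HF-C and 1.84 ± 0.935 CPM in LF-C (log2 2.39 ± 0.39, adjusted p = 0.0025). Fn1, fibronectin, which hepatocytes secrete to plasma, averaged 1140.5 ± 124 CPM in HF-C and 1412 ± 478 CPM in LF-C and was not called (adjusted p = 0.395); without LF-C-2 it passed as a fall (adjusted p = 0.0207).

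Enzymes that cut, guard or crosslink matrix rose in 16 of 22 cases and fell in 0 (18 and 1 without LF-C-2), with a median of 1.61. Mmp12, the elastase of macrophages (ENSMUSG00000049723, chromosome 9, 7344381 to 7369499), was at 47.2, 43.6, 48.2, 47.5 and 54.3 CPM in the HF-C libraries, against 2.02, 5.64, 1.15 and 0.925 CPM in the LF-C libraries. HF-C libraries kept within a narrow range, and LF-C-2 was the highest LF-C library (log2 4.31 ± 0.49, adjusted p = 0.000455; log2 5.16 without it). Mmp13, the main interstitial collagenase of mice, averaged 7.46 ± 4.70 CPM in HF-C and 0.220 ± 0.217 CPM in LF-C (log2 4.91 ± 0.68, adjusted p = 0.00117), and Timp1, the inhibitor of these proteases, 6.28 ± 1.65 CPM in HF-C and 0.507 ± 0.591 CPM in LF-C (log2 3.69 ± 0.70, adjusted p = 0.00562). Lox, which crosslinks collagen, averaged 3.95 ± 0.776 CPM in HF-C and 0.687 ± 0.539 CPM in LF-C (log2 2.56 ± 0.47, adjusted p = 0.00481), and Plat, the tissue plasminogen activator, 6.39 ± 1.80 CPM in HF-C and 0.720 ± 0.262 CPM in LF-C (log2 3.15 ± 0.35, adjusted p = 0.000421). Of 16 fibrogenic signals and receptors 9 rose and 0 fell. Tgfb2 averaged 3.62 ± 1.35 CPM in HF-C and 0.525 ± 0.233 CPM in LF-C (log2 2.73 ± 0.43, adjusted p = 0.00225) and Pdgfb 8.32 ± 2.24 CPM in HF-C and 1.92 ± 0.225 CPM in LF-C (log2 2.11 ± 0.24, adjusted p = 0.000492). Tgfb1, the ligand best known for fibrosis, was at 27.4, 27.1, 33.1, 30.3 and 34.4 CPM in the HF-C libraries, against 27.6, 46.1, 13.3 and 11.8 CPM in the LF-C libraries. LF-C-2 lay above all HF-C libraries, and Tgfb1 was not called (log2 0.31 ± 0.36, adjusted p = 0.587) but passed without it (log2 0.77, adjusted p = 0.0427).

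Markers of the cells that make matrix were called in 2 of 13 and 3 of 8 cases, beside 17.8% of all genes. Of 13 quiescent stellate cell markers 1 rose and 1 fell (2 and 1 without LF-C-2), and their summed level was 219 to 328 CPM in HF-C and 205 to 265 CPM in LF-C. Of 8 myofibroblast markers 1 rose and 2 fell (1 and 1 without LF-C-2), and their sum was 49.5, 49.5, 51.6, 56.6 and 55.3 CPM in the HF-C libraries, against 43.5, 269.8, 38.6 and 50.6 CPM in the LF-C libraries. LF-C-2 was the 1 high library. Acta2, the usual sign of activated stellate cells and also a smooth muscle gene, was not called (log2 -1.57 ± 0.72, adjusted p = 0.149) and was not called without LF-C-2 either (log2 0.24, adjusted p = 0.482). Myl9 and Myh11, smooth muscle myosin chains, were the 2 that fell; without LF-C-2 their fold changes went to -0.87 and -0.85, with adjusted p of 0.022 and 0.0836, against -2.49 ± 0.69 and -1.87 ± 0.58 with all libraries. The call was lost in 5 of 9 fits, highest adjusted p = 0.0823 without HF-C-5, for Myl9 and in 7 of 9 fits, highest adjusted p = 0.114 without HF-C-5, for Myh11. In whole liver, fewer cells of a type and less RNA per cell cannot be told apart, and this holds for every marker list below.

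Lipid-associated macrophage markers rose in 14 of 16 cases and fell in 0, with the highest median of all lists, 2.47. Their summed level was 933, 948, 941, 1086 and 1134 CPM in the HF-C libraries, against 144, 284, 148 and 95.9 CPM in the LF-C libraries. The lowest HF-C sum was 3.29-fold above the highest LF-C sum. Gpnmb, a glycoprotein of lipid-laden macrophages (ENSMUSG00000029816, chromosome 6, 49036518 to 49058182), was at 61.8, 55.0, 76.6, 57.3 and 66.8 CPM in the HF-C libraries, against 1.82, 11.8, 1.01 and 0.396 CPM in the LF-C libraries. LF-C-2 was the highest LF-C library and was still 4.65-fold under the lowest HF-C library (log2 4.08 ± 0.79, adjusted p = 0.00611; log2 5.94 without it). Trem2, the lipid-sensing receptor that names these cells, averaged 19.8 ± 3.36 CPM in HF-C and 2.54 ± 1.84 CPM in LF-C (log2 2.99 ± 0.46, adjusted p = 0.00195), Cx3cr1, the fractalkine receptor, 14.2 ± 4.54 CPM in HF-C and 0.623 ± 0.335 CPM in LF-C (log2 4.46 ± 0.39, adjusted p = 0.000187), and Spp1, osteopontin, which bile duct cells also make, 332 ± 129 CPM in HF-C and 36.4 ± 9.80 CPM in LF-C (log2 3.19 ± 0.37, adjusted p = 0.000492).

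Blood monocytes that enter the liver and resident Kupffer cells have separate markers. Of 16 monocyte and macrophage markers 8 rose and 0 fell with all libraries, and 16 of 16 rose without LF-C-2. Lyz2, lysozyme, was at 227, 311, 499.9, 287 and 267 CPM in the HF-C libraries, against 103, 313, 76.9 and 58.7 CPM in the LF-C libraries; LF-C-2 lay within the HF-C range, and the gene passed without it (log2 1.21 ± 0.47, adjusted p = 0.0953 with it, log2 1.97, adjusted p = 0.000363 without it). With all libraries Lyz2 also passed in limma-voom, with library totals as the only scaling and with a gene length offset. Ccr2, the receptor that brings monocytes into tissue (ENSMUSG00000049103, chromosome 9, 124101950 to 124113557), was at 16.7, 12.3, 20.6, 19.9 and 25.7 CPM in the HF-C libraries, against 1.52, 1.64, 1.22 and 1.85 CPM in the LF-C libraries. LF-C-2 was not set apart here, and the groups were 6.65-fold apart at their nearest libraries (log2 3.61 ± 0.27, adjusted p = 6.98e-05). Of 12 Kupffer cell markers 2 rose and 2 fell (4 and 3 without LF-C-2). Cd163, a haemoglobin scavenger receptor (ENSMUSG00000008845, chromosome 6, 124304651 to 124330527), was at 0.840, 3.41, 1.29, 3.802 and 1.12 CPM in the HF-C libraries, against 14.6, 13.8, 37.6 and 29.9 CPM in the LF-C libraries. All HF-C libraries were under 4 CPM and all LF-C libraries over 13 CPM (log2 -3.52 ± 0.50, adjusted p = 0.00141). Timd4, which binds dying cells and marks long-lived Kupffer cells, averaged 2.57 ± 2.18 CPM in HF-C and 11.6 ± 6.55 CPM in LF-C (log2 -2.17 ± 0.66, adjusted p = 0.0445; call lost in 6 of 9 fits, highest adjusted p = 0.0976 without HF-C-2). Clec4f, the lectin most particular to mouse Kupffer cells, averaged 152 ± 33.4 CPM in HF-C and 233 ± 163 CPM in LF-C and was not called (adjusted p = 0.268). Cd5l, a secreted macrophage protein, averaged 319.9 ± 64.0 CPM in HF-C and 143 ± 65.0 CPM in LF-C (log2 1.16 ± 0.28, adjusted p = 0.0172; call lost in 1 of 9 fits, highest adjusted p = 0.0566 without LF-C-1), and Cd207, langerin, 14.8 ± 5.39 CPM in HF-C and 4.18 ± 1.43 CPM in LF-C (log2 1.82 ± 0.32, adjusted p = 0.00394).

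Chemokines, which guide these cells, rose in 11 of 20 cases and fell in 0 (median 1.62), against 16 and 1 without LF-C-2. Ccl2, the ligand of Ccr2, was at 8.79, 6.47, 8.61, 9.89 and 12.4 CPM in the HF-C libraries, against 0.506, 1.33, 0.473 and 0.793 CPM in the LF-C libraries. The groups were far from overlap (log2 3.55 ± 0.34, adjusted p = 0.000225). Ccl7, another ligand of that receptor, averaged 2.01 ± 0.459 CPM in HF-C and 0.151 ± 0.215 CPM in LF-C (log2 3.66 ± 0.61, adjusted p = 0.00287), and Ccl3 2.22 ± 1.03 CPM in HF-C and 0.114 ± 0.187 CPM in LF-C (log2 4.19 ± 0.77, adjusted p = 0.00456). Cxcl12, which endothelial and stromal cells make at rest, averaged 273 ± 15.4 CPM in HF-C and 328 ± 123 CPM in LF-C and was not called (adjusted p = 0.507); without LF-C-2 it was the 1 that fell (adjusted p = 0.0115). Of 16 cytokine and inflammasome genes 5 rose and 1 fell; Tnf averaged 2.15 ± 0.436 CPM in HF-C and 0.306 ± 0.316 CPM in LF-C (log2 2.90 ± 0.65, adjusted p = 0.0119) and Nlrp3, the inflammasome sensor, 3.49 ± 0.817 CPM in HF-C and 0.875 ± 0.324 CPM in LF-C (log2 1.96 ± 0.31, adjusted p = 0.00231).

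Counts of called antigen presentation and interferon genes changed both without LF-C-2 and with the scaling. With library totals as the only scaling and all libraries kept, 8 and 14 genes of these lists rose. Of 12 MHC class II and dendritic cell genes 4 rose with all libraries and 10 without LF-C-2. Cd74, the invariant chain of class II, was at 435, 466, 775, 384 and 533 CPM in the HF-C libraries, against 146, 1004, 137 and 96.3 CPM in the LF-C libraries. LF-C-2 was above every HF-C library, and the other LF-C libraries were below all of them (log2 0.58 ± 0.63, adjusted p = 0.556; without LF-C-2 log2 2.00, adjusted p = 0.000155). Ciita, the switch of class II transcription, passed with all libraries at 10.4 ± 3.13 CPM in HF-C and 2.01 ± 1.03 CPM in LF-C (log2 2.35 ± 0.37, adjusted p = 0.00224). Of 17 interferon response genes 9 rose, and 15 without LF-C-2. Ifit2, which blocks translation of viral RNA, averaged 18.9 ± 3.03 CPM in HF-C and 4.16 ± 0.946 CPM in LF-C (log2 2.18 ± 0.22, adjusted p = 0.00028), Mx1, an antiviral GTPase, 6.98 ± 1.83 CPM in HF-C and 1.61 ± 0.399 CPM in LF-C (log2 2.11 ± 0.28, adjusted p = 0.000906), and Oasl2, of the oligoadenylate synthetase family, 22.5 ± 3.65 CPM in HF-C and 7.44 ± 2.47 CPM in LF-C (log2 1.60 ± 0.23, adjusted p = 0.00157). Irf7, a master regulator of interferon genes, passed without LF-C-2 (log2 0.13 ± 0.42, adjusted p = 0.861 with it, log2 0.87, adjusted p = 0.0079 without it) and, with all libraries, in limma-voom (log2 1.02, adjusted p = 0.00244). Of 11 T and NK cell genes 2 rose (5 without LF-C-2), Gzmb (log2 1.98 ± 0.50, adjusted p = 0.0213) and Cd8a (log2 1.71 ± 0.51, adjusted p = 0.0424; call lost in 6 of 9 fits, highest adjusted p = 0.106 without HF-C-5), and their summed level was 12.1 to 25.2 CPM in HF-C and 7.08 to 22.8 CPM in LF-C.

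Vessel lining genes were called in 4 of 15 sinusoidal and 3 of 11 vascular cases, beside 17.8% of all genes. Of 15 sinusoidal endothelial markers 0 rose and 4 fell, with a median of -0.51 (-0.06 with library totals as the only scaling). Clec4g, a lectin of these cells, was at 29.3, 27.3, 31.4, 26.8 and 36.6 CPM in the HF-C libraries, against 77.0, 137, 50.3 and 40.2 CPM in the LF-C libraries. The highest HF-C library lay under the lowest LF-C library (log2 -1.33 ± 0.32, adjusted p = 0.0159), with -0.91 without LF-C-2. Dnase1l3, an endonuclease of the same cells, averaged 44.7 ± 15.1 CPM in HF-C and 110.4 ± 30.0 CPM in LF-C (log2 -1.30 ± 0.27, adjusted p = 0.00777), and Wnt2, an angiocrine signal that keeps pericentral hepatocytes in their state, 2.10 ± 0.580 CPM in HF-C and 6.23 ± 3.47 CPM in LF-C (log2 -1.56 ± 0.36, adjusted p = 0.0135). Stab1, their scavenger receptor, averaged 67.2 ± 15.4 CPM in HF-C and 83.1 ± 16.0 CPM in LF-C and was not called (adjusted p = 0.312). Of 11 vascular endothelial and capillarisation genes 3 rose (5 without LF-C-2) and 0 fell; the adhesion molecules among them were Vcam1, which averaged 45.0 ± 7.30 CPM in HF-C and 13.7 ± 3.73 CPM in LF-C (log2 1.72 ± 0.22, adjusted p = 0.000823), and Icam1, which averaged 28.6 ± 5.47 CPM in HF-C and 7.71 ± 3.26 CPM in LF-C (log2 1.90 ± 0.31, adjusted p = 0.00253). Of 11 bile duct markers 4 rose and 0 fell. Sox9, a transcription factor of duct cells and of hepatocytes near them, averaged 16.5 ± 6.53 CPM in HF-C and 6.11 ± 1.48 CPM in LF-C (log2 1.43 ± 0.30, adjusted p = 0.00947), and Epcam, a surface protein of duct cells, 10.8 ± 5.20 CPM in HF-C and 2.45 ± 0.756 CPM in LF-C (log2 2.15 ± 0.44, adjusted p = 0.0081). Without LF-C-2 there were 8 rises.

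**Figure D4:**
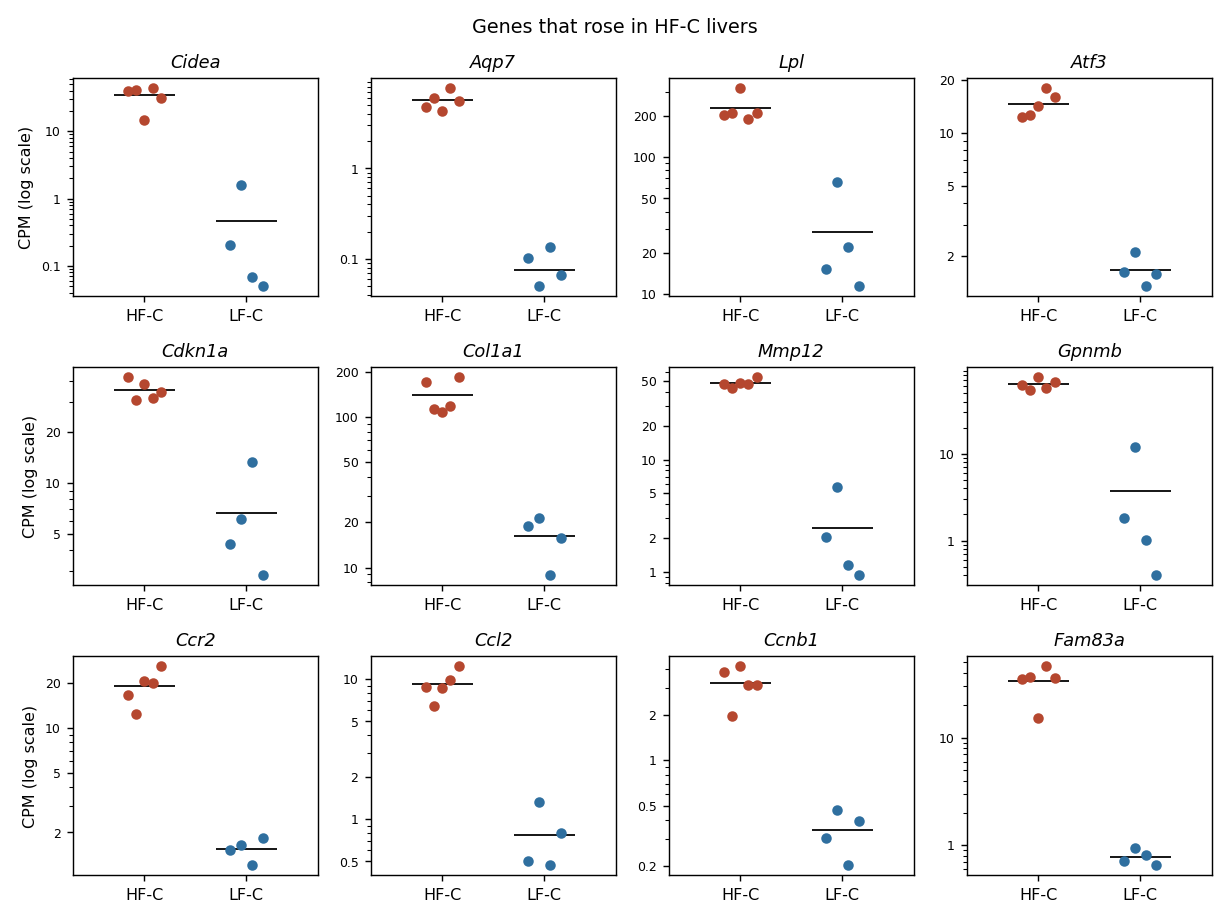
Level in CPM (log scale) of 12 genes that rose, per library, HF-C left and LF-C right in each panel; bars mark group means, and libraries at 0 are drawn at 0.05 CPM. In Gpnmb and Cidea LF-C-2 is the highest LF-C library, and no panel shows an overlap of the groups.

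Cell division genes rose in 17 of 28 cases and fell in 1 (median 1.12). Ccnb1, cyclin B1 of the mitotic kinase, was at 3.81, 1.96, 4.18, 3.15 and 3.15 CPM in the HF-C libraries, against 0.304, 0.470, 0.203 and 0.396 CPM in the LF-C libraries. All LF-C libraries were under 0.5 CPM (log2 3.22 ± 0.36, adjusted p = 0.000455). Mki67, which coats mitotic chromosomes, was at 16.3, 14.0, 18.05, 11.6 and 17.1 CPM in the HF-C libraries, against 2.43, 4.15, 1.49 and 0.595 CPM in the LF-C libraries, 2.79-fold apart at the nearest libraries (log2 2.85 ± 0.44, adjusted p = 0.0019). Ccnb2 averaged 4.16 ± 0.510 CPM in HF-C and 0.649 ± 0.461 CPM in LF-C (log2 2.73 ± 0.44, adjusted p = 0.00235) and Cdc20, an activator of the anaphase-promoting complex, 6.25 ± 0.579 CPM in HF-C and 1.04 ± 0.545 CPM in LF-C (log2 2.60 ± 0.32, adjusted p = 0.00068). Of the replicative helicase Mcm2 to Mcm6 rose, the largest by 1.09 ± 0.31 for Mcm4, but Mcm7, at 13.8 to 15.6 CPM in HF-C and 10.4 to 19.6 CPM in LF-C, was not called (adjusted p = 0.907). In the fits without 1 library the calls of Mcm2, Mcm4 and Mcm6 were lost in 7, 6 and 7 of 9, with highest adjusted p of 0.104, 0.0933 and 0.0882. Pcna, the clamp of DNA polymerase, was at 30.8 to 39.6 CPM in HF-C and 25.0 to 30.6 CPM in LF-C and was not called (adjusted p = 0.299), and Tk1, thymidine kinase, was the 1 that fell (log2 -1.41 ± 0.32, adjusted p = 0.0128).

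Promoters of mitotic genes are known for repeated CCAAT boxes and for the CHR element TTTGAA, which the DREAM and MuvB complexes bind. On either strand, CCAAT was found in 18 of the 22 list members with a window, 81.8%, against 37.9% of all genes, and TTTGAA in 10 of 22, 45.5%, against 18.1%. Of the 14 called members with a window 13 held CCAAT. The windows of the 3 called members with the largest fold change are printed with CCAAT, or ATTGG where it lies on the other strand, in capitals. They lie at chr13:100786437-100786736 for Ccnb1, chr9:70421505-70421804 for Ccnb2 and chr7:135716330-135716629 for Mki67, all on the minus strand.
Ccnb1: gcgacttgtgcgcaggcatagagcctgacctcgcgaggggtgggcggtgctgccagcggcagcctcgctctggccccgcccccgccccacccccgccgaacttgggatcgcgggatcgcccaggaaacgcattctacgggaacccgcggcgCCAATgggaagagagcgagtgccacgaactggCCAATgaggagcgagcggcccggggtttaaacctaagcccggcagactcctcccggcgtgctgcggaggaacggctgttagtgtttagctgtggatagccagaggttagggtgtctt
Ccnb2: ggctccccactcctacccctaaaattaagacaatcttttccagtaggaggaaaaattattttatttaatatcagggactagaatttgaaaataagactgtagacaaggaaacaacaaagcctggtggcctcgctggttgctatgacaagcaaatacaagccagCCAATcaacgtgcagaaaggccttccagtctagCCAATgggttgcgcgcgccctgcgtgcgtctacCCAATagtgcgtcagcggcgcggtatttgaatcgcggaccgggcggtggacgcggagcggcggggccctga
Mki67: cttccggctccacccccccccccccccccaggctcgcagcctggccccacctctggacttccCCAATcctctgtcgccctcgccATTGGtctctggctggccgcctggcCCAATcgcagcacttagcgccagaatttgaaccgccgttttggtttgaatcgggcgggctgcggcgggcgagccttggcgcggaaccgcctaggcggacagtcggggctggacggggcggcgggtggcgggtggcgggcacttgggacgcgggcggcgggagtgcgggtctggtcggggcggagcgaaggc
Ccnb1 held 2 boxes, and Ccnb2 and Mki67 held 3 each. Ccnb2 and Mki67 also held TTTGAA, 2 times each. A sterol regulatory element, 10 letters long, was found in 0 of the 16 cholesterol synthesis genes with a window, against 0.0851% of all genes. For the interferon list, 2 GAAA stretches 2 bases apart were found in 7 of 11 members with a window, 63.6%, against 3.49% of all genes.

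Some of the largest rises belong to no pathway list. Sprr1a, a small proline-rich protein of the skin's barrier that is also made in injured tissue (ENSMUSG00000050359, chromosome 3, 92483952 to 92485895), was at 19.8, 14.1, 7.89, 29.1 and 11.6 CPM in the HF-C libraries, against 0, 0.548, 0 and 0 CPM in the LF-C libraries. It was at 0 in LF-C-1, LF-C-3 and LF-C-4, and the fitted fold change (log2 6.86 ± 0.82, adjusted p = 0.000594; log2 11.10 without LF-C-2) therefore depends on LF-C-2 and on the prior count. Fam83a, a scaffold protein studied in tumour cells (ENSMUSG00000051225, chromosome 15, 57985419 to 58011009), was at 34.9, 37.0, 15.4, 46.0 and 35.7 CPM in the HF-C libraries, against 0.708, 0.940, 0.812 and 0.661 CPM in the LF-C libraries. The LF-C libraries were alike and all under 1 CPM (log2 5.42 ± 0.36, adjusted p = 6.98e-05). Ephb2, a receptor of membrane-bound ephrins, was at 39.2, 41.6, 23.6, 44.6 and 34.9 CPM in the HF-C libraries, against 1.42, 3.21, 1.89 and 0.595 CPM in the LF-C libraries. The lowest HF-C library was 7.35-fold above the highest LF-C library (log2 4.37 ± 0.42, adjusted p = 0.000225). Ly6d, a small surface protein, averaged 108 ± 26.6 CPM in HF-C and 3.19 ± 4.68 CPM in LF-C (log2 5.09 ± 0.84, adjusted p = 0.00267; log2 7.01 without LF-C-2), and Shc2, an adaptor of receptor kinases, 13.0 ± 4.76 CPM in HF-C and 0.466 ± 0.356 CPM in LF-C (log2 4.88 ± 0.56, adjusted p = 0.000506). Anxa2, a membrane-binding annexin that tumour and fetal liver carry, averaged 166 ± 27.9 CPM in HF-C and 19.1 ± 12.02 CPM in LF-C (log2 3.13 ± 0.38, adjusted p = 0.00068).

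The diet effect of control livers was set against that of KO-labelled livers, HF-KO against LF-KO, in 1 fit of all 19 libraries; the 2 diet effects share no library. The difference of the effects passed in 29 of 14391 genes, 0.202%, 11 positive and 18 negative, and 1856 genes had an unadjusted p under 0.05. The number was 7 without LF-KO-1 or without LF-KO-2 and 48 without HF-KO-1. Of these 29, 27 had the larger diet effect by size in control livers and 9 had opposite signs. The fitted diet effects of Cidec, the droplet-fusing partner of Cidea, were 4.13 in control and 0.64 in KO-labelled livers (log2; difference 3.49 ± 0.43, adjusted p = 0.000765). Those of Plin4 were 2.22 and -1.09 (difference 3.31 ± 0.42, adjusted p = 0.000765), and those of Fam83a 5.42 and 2.32 (difference 3.10 ± 0.48, adjusted p = 0.00783). Male-biased genes were among the negative differences. The effects were -9.14 in control and -2.16 in KO-labelled livers for Hsd3b5 (difference -6.98 ± 1.23, adjusted p = 0.0167), -4.34 and -0.76 for Slco1a1 (difference -3.58 ± 0.63, adjusted p = 0.0167) and -2.78 and -0.41 for Susd4 (difference -2.37 ± 0.39, adjusted p = 0.0148). The call was lost without LF-KO-1 for Hsd3b5 (adjusted p = 0.0514) and without LF-KO-1 or LF-KO-2 for Slco1a1 (highest adjusted p = 0.0537). Cyp2c genes made up 5 of the 29; the one with the lowest p was Cyp2c29, with -1.79 in control and 0.20 in KO-labelled livers (difference -1.99 ± 0.28, adjusted p = 0.0025). Cd163 had -3.52 and -0.21 (difference -3.31 ± 0.67, adjusted p = 0.0413), with the call lost in 12 of 19 fits that left out 1 library, highest adjusted p = 0.11 without LF-KO-2. Among the largest rises of the matrix and macrophage lists the difference did not pass, for example for Mmp12 with 4.32 and 3.13 (difference 1.18 ± 0.82, adjusted p = 0.56), Col1a1 with 3.10 and 1.41 (difference 1.695 ± 0.65, adjusted p = 0.309) or Ccr2 with 3.60 and 1.94 (difference 1.67 ± 0.44, adjusted p = 0.12); Ccr2 passed without HF-KO-6, adjusted p = 0.0199. The genotype of each library was taken from its label.

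**Figure D5:**
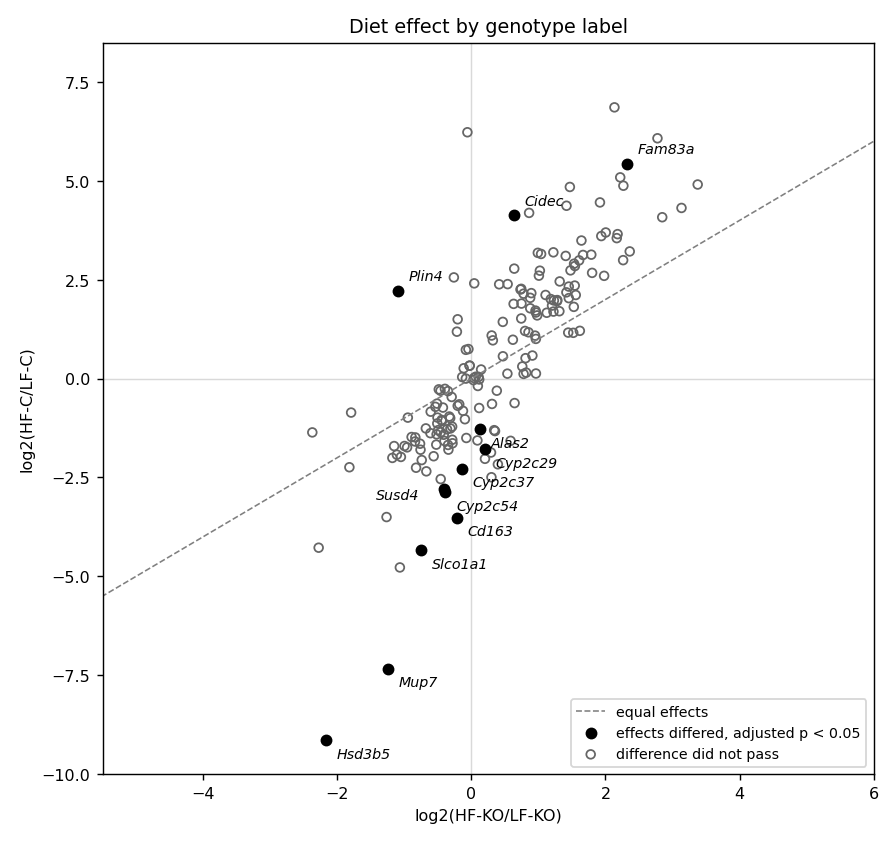
Log2 diet effect in KO-labelled livers (HF-KO over LF-KO, horizontal) and in control livers (HF-C over LF-C, vertical) in 1 fit of 19 libraries, for the genes named in the text. Filled points are genes whose 2 diet effects differed at an adjusted p under 0.05; Cidec and Plin4 lie above the line of equal effects, and Hsd3b5, Slco1a1 and Susd4 below it.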

How the data were processed

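Whole-liver RNA in 9 libraries was sequenced in paired reads of 150 bases from non-stranded libraries, per the labels' protocols. The authors aligned reads with STAR 2.5, per the labels, and counted them with HTSeq 0.6.1, per the submitters' processing notes. The sources used here do not give the genome build, the annotation or the counting options. The deposited table holds raw read counts per gene and library, FPKM that the authors made from those counts and a listed gene length, and the authors' log2 fold changes and p-values, which are not used in the text. Without strand, reads of a gene and of an antisense neighbour cannot be told apart. All value columns belonged to samples of the series.

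From the counts, edgeR 4.0.16 in R 4.3.3 fitted HF-C against LF-C with TMM scaling, its default expression filter, the quasi-likelihood test and Benjamini-Hochberg adjustment over all 13825 tested genes at a threshold of 0.05. The same method tested the difference of diet effects in 19 libraries. The SE was derived from the log2 fold change and its F statistic, and the method was tested on simulated data. Genes such as Aqp7, Sprr1a, Mmp13, Ccl3 and Ccl7 passed the expression filter only through their HF-C counts, and Mup1 only through its LF-C counts. As for Slc7a11, the calls of such genes are no separate support. The labels give each sample a title of its own and do not say more on how replicates were taken, so p-values measure the spread between these samples, and floors of 3 counts cover counting error only.

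The members and the 57 gene lists were chosen with earlier results of these data known. The rule for named genes admits Pparg, the 10 largest rises and falls at 5 CPM or more, the 10 most abundant nuclear genes of LF-C, up to 4 called and 2 uncalled members per list, and the 5 smallest p for the difference. Of the 312 genes it admits 156 are named, and 27 others were chosen after their values were seen. Alternatives were median-of-ratios factors, library totals alone, no filter, DESeq2 1.42.0, voom with quality weights in limma 3.58.1, a length offset, a replicate block, all 19 libraries in 1 fit, and each library left out. Some genes are not reported here. Promoter windows are RefSeq sequences of GRCm38.p6.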

Additional observations from a re-analysis of the deposited data

Results flagged for a closer look

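In 36 of 366 groups, 1 for each named gene and diet, 1 library lay far from the others by Dixon's criterion, which compares the gap to the nearest library with the whole range. Chance gives about 1 in 20 for independent values with a normal spread. Genes of the same library are not independent, some values lie at a few counts, and some genes were chosen after their values were seen. An excess over chance was therefore not tested. LF-C-2 was the library set apart in 18 of the 36. Its level was 43221 CPM for Apoa1 (6938 to 13133), with the range of the other LF-C libraries in parentheses, and 9498 CPM for Apoc3 (2039.9 to 2779), 7382 CPM for Gnmt (2076 to 2712) and 1004 CPM for Cd74 (96.3 to 146). Among blood, muscle and acute phase genes its level was 613 CPM for Hba-a1 (61.5 to 81.5), 58.4 CPM for Acta2 (3.95 to 7.27), 37.4 CPM for Myl9 (3.25 to 5.06), 107 CPM for Saa2 (30.4 to 38.6) and 35.9 CPM for Orm2 (8.99 to 10.8). Among genes that were higher in HF-C its level was 24.8 CPM for Cd63 (6.54 to 8.30), 11.8 CPM for Gpnmb (0.396 to 1.82), 10.2 CPM for Ly6d (0.330 to 1.21), 11.1 CPM for Oasl2 (5.82 to 6.54) and 1.57 CPM for Cidea (0 to 0.202). At a few counts it was 0.548 CPM for Sprr1a (0 to 0), 0.470 CPM for Ccl7 (0 to 0.0676), 0.392 CPM for Ccl3 (0 to 0.0661) and 0.0783 CPM for Slc7a11 (0 to 0). The part of LF-C-2's shorter transcripts and lower mitochondrial share in these values was not tested.

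The other 18 were spread over 6 libraries. HF-C-3 was high, beside the range of the other HF-C libraries, at 587 CPM for Abcb11 (363 to 428), 321 CPM for Lpl (189.8 to 212), 166 CPM for Agxt (81.2 to 105), 25.7 CPM for Trem2 (17.1 to 19.1) and 0.567 CPM for Hsd3b5 (0.112 to 0.217), and low at 7.06 CPM for Mcm2 (9.95 to 10.7). HF-C-1 was high at 1358 CPM for Fn1 (1051 to 1101), 277 CPM for Gstm3 (169 to 188) and 7.61 CPM for Eda2r (3.26 to 4.16). HF-C-5 was high at 12.3 CPM for Pdgfb (6.76 to 7.56) and low at 377 CPM for Slc27a5 (491 to 532). Within LF-C, LF-C-1 was high at 546 CPM for Srebf1 (241 to 256) and 16.2 CPM for Gdf15 (3.45 to 5.02). LF-C-3 was low at 129.7 CPM for G0s2 (249.6 to 263) and 14.5 CPM for Slc2a5 (21.3 to 22.6). LF-C-4 was high at 76.8 CPM for Col27a1 (40.8 to 43.9) and low at 1.32 CPM for Epcam (2.74 to 2.91) and 0.330 CPM for Plat (0.810 to 0.879).

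The diet effect differed between control and KO-labelled livers, by the test of the difference itself in edgeR, for 8 of the genes set side by side. The difference (log2, control minus KO-labelled) was 3.49 for Cidec, 3.31 for Plin4 and 3.10 for Fam83a, and -6.98 for Hsd3b5, -3.58 for Slco1a1, -3.31 for Cd163, -2.37 for Susd4 and -1.99 for Cyp2c29.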

How the results depend on the processing

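No called gene of the text changed direction in any fit that gave it a value. Of the 147 called genes named in the text 97 kept their call under every alternative that gave them a value, and 123 in each such fit that left out 1 library. Slc7a11 is in both counts, though only 4 of the 9 left-out fits gave it a value. Of 36 named genes that were not called, 9 passed without LF-C-2. The 2458 calls became 3872 with DESeq2 (2103 lower), 3795 with all 19 libraries in 1 fit (1883 lower) and 1451 to 3478 when 1 library was left out, of which 450 to 1628 were lower. Leaving out HF-C-5 gave the fewest calls and leaving out LF-C-2 the most; of the 9 left-out fits, the total moved by over 1.5 times without each HF-C library but HF-C-3. Library totals as the only scaling gave 2730 higher and 326 lower, and a gene length offset 1633 lower. Without LF-C-1 and LF-C-2, an alternative chosen after seeing the data, 4213 were called, 2331 higher and 1882 lower. The replicate numbers did not pair the samples: deviations of same-numbered libraries correlated at -0.21 to 0.07. With the replicate number as a block 700 genes were called, 545 higher and 155 lower, and the 29 genes whose diet effects differed became 18. That number was 213 with DESeq2, 103 with limma-voom and 7 to 48 when 1 library was left out, moving by over 1.5 times without HF-C-1, HF-C-2, HF-C-4, LF-C-3, HF-KO-1, HF-KO-3, LF-KO-1, LF-KO-2 or LF-KO-3. The cause of these changes was not tested. Of the 36 named genes that were not called, 23 changed sign in at least 1 alternative. Those printed with a fold change were Acta2 (0.19 with limma-voom, 0.12 without LF-C-1 and LF-C-2, -1.91 to 0.24 over left-out fits) and Irf7 (-0.10 to 0.87 over left-out fits), and the Mmp12 difference changed sign too (-0.20 to 2.02). Of 627 list counts recomputed with another scaling or with 1 library left out, 463 stayed within 1.5 times. At this depth 3 counts are 0.145 to 0.303 CPM, so changes under that level were not detectable.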

Other observations

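Hepatocyte identity factors and the liver's hormones were also measured. Of 16 hepatocyte transcription factors 4 fell (1 with library totals as the only scaling) and 1, Pparg, rose. Cebpa, which holds hepatocytes in their mature state, averaged 489 ± 35.9 CPM in HF-C and 787 ± 225 CPM in LF-C (log2 -0.69 ± 0.20, adjusted p = 0.037; call lost in 6 of 9 fits, highest adjusted p = 0.105 without LF-C-1), and Rxra, the partner of many nuclear receptors, 438 ± 42.8 CPM in HF-C and 771 ± 201 CPM in LF-C (log2 -0.82 ± 0.19, adjusted p = 0.0141). Of 15 hepatokines 3 rose and 5 fell. Hgfac, the protease that activates hepatocyte growth factor, averaged 135 ± 19.6 CPM in HF-C and 377 ± 102 CPM in LF-C (log2 -1.48 ± 0.20, adjusted p = 0.00114), and Inhbe, an activin chain made by hepatocytes, 151 ± 26.7 CPM in HF-C and 89.8 ± 24.2 CPM in LF-C (log2 0.75 ± 0.21, adjusted p = 0.0359; call lost in 5 of 9 fits, highest adjusted p = 0.0863 without HF-C-4). The lists of 17 circadian clock genes, 12 mitochondrially encoded subunits and 22 nuclear respiratory chain subunits held 0 rises each and 2, 3 and 4 falls. Over all genes 7.15% fell. With library totals as the only scaling these lists held 0, 0 and 2 falls. Without LF-C-2 the clock and mitochondrially encoded lists held 6 falls each. Sdhb, the iron-sulphur subunit of succinate dehydrogenase, averaged 149 ± 12.6 CPM in HF-C and 304 ± 138 CPM in LF-C (log2 -1.03 ± 0.25, adjusted p = 0.019; call lost in 2 of 9 fits, highest adjusted p = 0.0575 without HF-C-5). With library totals as the only scaling the median of the mitochondrially encoded subunits was 0.05 in place of -0.32.

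Lysosomal genes rose in 5 of 22 cases and fell in 0. Fetal or tumour-associated liver genes rose in 4 of 11 and fell in 0. Over all genes 10.6% rose and 7.15% fell. Without LF-C-2 the rises in these lists were 9 and 7. Cd63, a membrane protein of lysosomes and exosomes, was at 57.7, 64.8, 54.8, 76.0 and 64.0 CPM in the HF-C libraries, against 8.30, 24.8, 6.56 and 6.54 CPM in the LF-C libraries, and the groups did not overlap (log2 2.46 ± 0.40, adjusted p = 0.00266). Ctss, a cathepsin of antigen-presenting cells, averaged 149 ± 36.9 CPM in HF-C and 45.9 ± 13.9 CPM in LF-C (log2 1.69 ± 0.25, adjusted p = 0.00154). Lipolysis genes gave 1 rise and 2 falls among 9 (4 falls without LF-C-2), the 2 falls being Aadac and Ces2a, esterases of the hepatocyte's endoplasmic reticulum (adjusted p = 0.00737 and 0.0107). Of markers of cells that could reach a liver sample, 0 of 8 B and plasma cell genes, 1 of 3 neutrophil genes (Csf3r, higher), 2 of 6 erythroid genes and 2 of 6 adipocyte genes (both lists lower) were called, beside 17.8% of all genes. Without LF-C-2, 2 neutrophil genes were higher, and 1 gene was higher in both the erythroid and the adipocyte list, with 2 and 3 lower. The summed erythroid level was 143 to 206 CPM in HF-C and 245 to 1523 CPM in LF-C, the top value being LF-C-2. The call of Hba-a1, an alpha globin gene, was lost in 5 of 9 fits, highest adjusted p = 0.121 without HF-C-5, and its log2 fold change was -2.03 ± 0.64, or -0.55 without LF-C-2. Alas2, the heme synthesis enzyme of red cell precursors, averaged 40.8 ± 4.68 CPM in HF-C and 99.5 ± 36.2 CPM in LF-C (log2 -1.29 ± 0.22, adjusted p = 0.00343). The defining fat cell genes Adipoq, Lep and Retn were too low to be tested.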
